A study of Bos taurus with 9 samples.

Results

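The genes described here encode the chaperones, folding enzymes, stress sensors and disposal factors of the endoplasmic reticulum, the compartment in which secreted and membrane proteins are made. They were chosen by name: 35 names were looked up among the 24596 genes of the deposited table, with letter case ignored, and 31 had a row. HSPA5, DNAJB11, TXNDC5 and ERO1L had no row under those names and were not analysed here. ERO1A, for which RefSeq gives ERO1L as a synonym, is in the table and is given beside the 31 without being counted among them.

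Bovine endometrial epithelial cells (BEEC) came from 3 uteri collected in the early luteal phase, were grown in medium with fetal bovine serum, and were frozen at passage 1 per the protocol, while the sample fields give passage 2. On day 4 after fertilization 5 morulae at a time joined these cells, and they stayed until day 8, when the BEEC of 3 wells were pooled for each RNA sample. All 9 libraries thus come from BEEC that had met embryos, and no library without embryos was analysed here. The groups, with 3 libraries each, are named after the conditioning that the embryos had before the transfer: control, HIGHGLUC (high glucose) and LOWAA (low amino acids). The labels give neither the concentrations nor the uterus of each library, so it is not known whether the libraries of a group are separate cultures or animals, and p-values measure the spread between these samples only. Libraries keep the numbers of the labels: control 5, 9 and 13, HIGHGLUC 6, 10 and 14, and LOWAA 8, 12 and 15. These numbers form 3 sets with 1 library of each group (5, 6 and 8; 9, 10 and 12; 13, 14 and 15), and values below are listed in the order of set 1, set 2 and set 3. What the numbers stand for is not stated in the labels.

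When unfolded proteins build up in the endoplasmic reticulum, the membrane sensors ATF6, ERN1 (IRE1) and EIF2AK3 (PERK) start the unfolded protein response. ATF6 is cut free as a transcription factor, ERN1 splices the XBP1 transcript so that it encodes an active transcription factor, and EIF2AK3 slows translation by phosphorylating the initiation factor eIF2. The transcription factors then raise chaperones, disulfide enzymes and the machinery that sends misfolded proteins to the proteasome. The endometrial epithelium secretes much of the fluid that feeds the embryo before implantation, so its cells pass much protein through this compartment.

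Total exon reads per library ran from 2887097 (control 5) to 13969325 (control 9), and intron reads made up 7.05% to 13.7% of the reads. Of 8 epithelial markers, CLDN7 and GRHL2 were at 0 reads, which allows up to 0.215 to 1.04 CPM (counts-per-million of exon reads) depending on the library, and the list summed to 7839 to 8927 CPM. All 8 stromal fibroblast markers were present and summed to 10555 to 13152 CPM, with 10831 to 13152 CPM in the control libraries, 10555 to 12763 CPM in HIGHGLUC and 11155 to 13099 CPM in LOWAA. The stromal sum was thus above the epithelial sum in every library, though sums of different lists do not give shares of cells. Smooth muscle markers summed to 300.1 to 516 CPM. PTPRC and CD3E of the leukocyte list (11.4 to 17.3 CPM in all) and CDH5 and KDR of the endothelial list (0.799 to 2.77 CPM) were at 0 reads. Of the embryo list 3 of 6 genes had a row, SOX2 was at 0, and the sum was 0.266 to 0.554 CPM. In bulk RNA, fewer cells of a type and less RNA per cell cannot be told apart.

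All 31 genes passed the filter on low counts that left 11839 genes to test. They had 973 reads (ERN1) to 125070 reads (HSP90B1) over the 9 libraries, and at least 31 reads in each library. Together they took 0.932% (HIGHGLUC 10) to 1.08% (LOWAA 15) of the exon reads of a library. The ratio of the highest to the lowest library had a median of 1.29 over the 31 genes, from 1.16 for EDEM2 to 2.26 for CRELD2, beside a median of 1.44 over all tested genes. For 29 of them at least 95% of the reads matched a single place, while DNAJC10 had 49.7% such reads and PDIA6 92.6%, so part of their counts may belong to near-identical copies. Levels between genes are compared below in RPKM, which here are CPM per kilobase of exon, averaged over the 9 libraries.

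The lectin chaperones and the disulfide enzymes led the levels. CALR (calreticulin), a lumenal chaperone that binds sugar chains of folding glycoproteins, had 703 RPKM (chromosome 7, 13731957 to 13735788, 9 exons; positions are those of the table, whose build is UMD3.1 per the submitters' processing notes). PDIA3, the disulfide isomerase that works with the lectin chaperones, had 635 RPKM, and HSP90B1, the HSP90 of this compartment (chromosome 5, 67940791 to 67959532, 18 exons), had 578 RPKM. SERPINH1, a chaperone of procollagen, had 369 RPKM, P4HB, a disulfide isomerase and subunit of collagen prolyl hydroxylase, had 362 RPKM, and CANX (calnexin), the membrane-bound lectin chaperone, had 303 RPKM. The 5 genes with the most reads took 62.6% of the reads of all 31. The disulfide enzymes spread from 26.2 RPKM for PDIA5 to that of PDIA3, with a median of 243 RPKM over 6 genes.

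The partners of the HSP70 in this compartment, whose own gene HSPA5 was not analysed here, had lower levels than HSP90B1. HYOU1, a nucleotide exchange factor of that HSP70, had 39.6 RPKM, and the J-domain proteins DNAJC3, DNAJC10 and DNAJB9 had 67.0, 57.4 and 22.5 RPKM. SDF2L1, a partner of J-domain proteins, had 17.4 RPKM. The translocon genes had 110 RPKM (SEC61B), 95.9 RPKM (SEC61A1, the pore) and 66.5 RPKM (SERP1, which binds the pore). The 7 genes of degradation lay between 16.9 RPKM (the ubiquitin ligase SYVN1) and 53.6 RPKM (its partner HERPUD1). Among the sensors ATF6 had 30.4 RPKM, EIF2AK3 14.96 RPKM and ERN1 4.35 RPKM, the lowest of the 31. XBP1, whose transcript ERN1 splices, had 173 RPKM. From ERN1 to CALR the range was 162-fold. Neighbours in this order often had overlapping ranges over the libraries, as CALR (641 to 770.1 RPKM) with PDIA3 (589 to 676 RPKM).

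**Figure D1:**
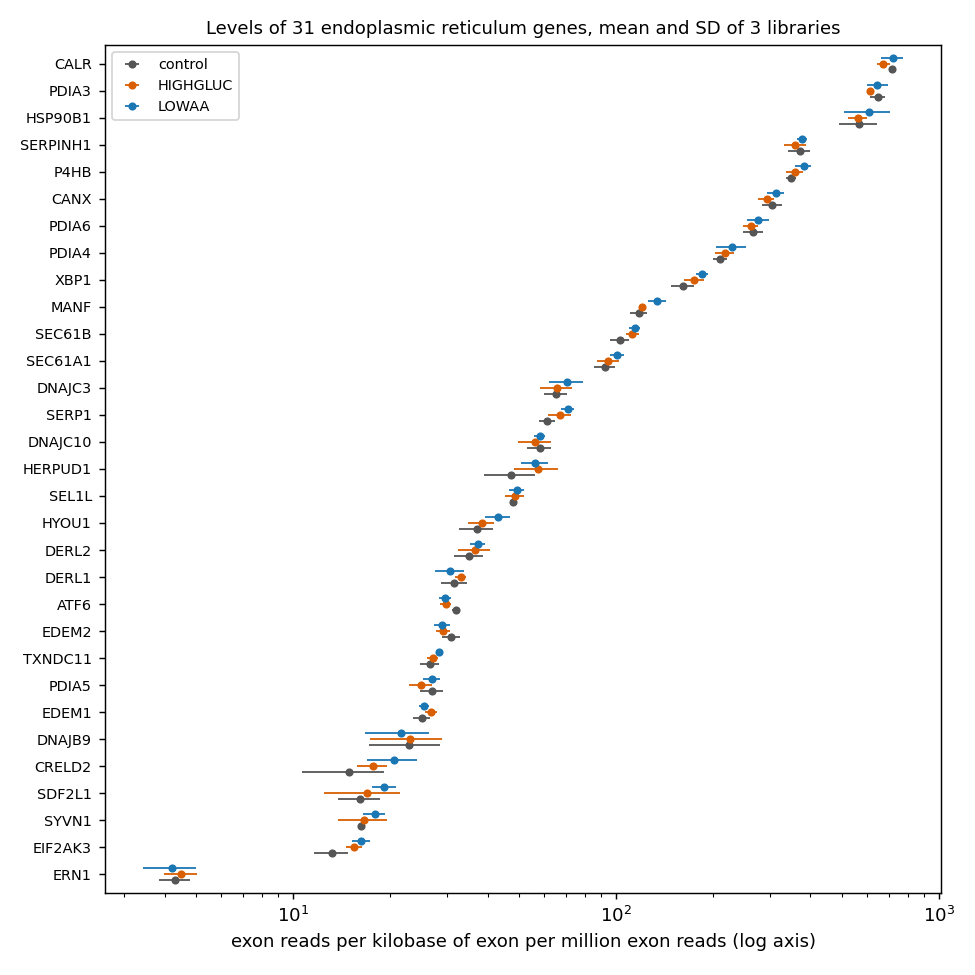
Level of the 31 genes in RPKM (CPM per kilobase of exon, log axis), as mean and SD of the 3 libraries of each group. The order from CALR (703 RPKM over all libraries) to ERN1 (4.35 RPKM) spans 162-fold, and for most genes the SD bars of the 3 groups overlap.

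LOWAA against control asked how BEEC differed after contact with embryos from low amino acids. The genes lay slightly higher on the whole: 25 of 31 had a log2 fold change above 0, beside 50.9% of all tested genes, and the median was 0.10, a 1.07-fold difference, beside 0.00 over all tested genes. The 31 genes shifted together between libraries: the median of their log2 CPM minus each gene's mean ran from -0.14 (control 9) to 0.11 (LOWAA 8). Counts of genes here and below thus rest on 3 libraries a group and are not 31 separate observations. No gene of the 31 passed the test, and neither did any other gene (0 of 11839, or 0%, with edgeR's quasi-likelihood test at adjusted p under 0.05; 474 had an unadjusted p under 0.05; DESeq2 called 4 genes, none of them among the 31). At unadjusted p under 0.05 there were 4 of 31 genes, all higher (EIF2AK3, SERP1, CRELD2 and MANF, 12.9%), beside 1.55% of all tested genes in that direction, 2.46% in the other and 4% in either. The smallest adjusted p among the 31 was 1.00.

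The sensors did not share a direction. EIF2AK3 (chromosome 11, 47302535 to 47384700, 17 exons) had 66.3, 50.8 and 62.97 CPM in the control libraries and 80.5, 71.2 and 70.1 CPM in the LOWAA libraries. Every LOWAA library was above every control library, and control 9 stood lowest. The log2 fold change was 0.31 ± 0.10 (SE, n = 3 per group; edgeR unadjusted p = 0.0111), and 0.20 without control 9. XBP1 (chromosome 17, 70344598 to 70349566, 5 exons) had 305, 252 and 292 CPM in the control group and 345, 315.1 and 315.1 CPM in the LOWAA group, again without overlap, and a log2 fold change of 0.20 ± 0.10 (edgeR unadjusted p = 0.0593), which was 0.13 without control 9. The table counts reads per gene, so spliced and unspliced XBP1 transcripts were not separated.

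ATF6 lay the other way, with 71.6, 72.8 and 71.4 CPM in the control libraries and 68.3, 61.9 and 69.2 CPM in the LOWAA libraries, and a log2 fold change of -0.11 ± 0.08 (edgeR unadjusted p = 0.159), which was -0.07 without LOWAA 12. Its 3 LOWAA libraries were all below its 3 control libraries. ERN1 had 10.9, 12.95 and 12.98 CPM against 10.6, 14.3 and 11.1 CPM, so its groups overlapped (edgeR unadjusted p = 0.692).

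Small stress-induced proteins of the lumen came next. CRELD2 (chromosome 5, 120933368 to 120940333, 10 exons), which is secreted by stressed cells, had 14.5, 20.2 and 25.7 CPM in the control libraries and 28.9, 22.2 and 32.6 CPM in the LOWAA libraries. Its groups overlapped, with control 5, the shallowest library, lowest of all. The log2 fold change was 0.44 ± 0.20 (edgeR unadjusted p = 0.0458), and it ranged from 0.29 (without control 5) to 0.65 when single libraries were left out. MANF, a secreted factor that protects cells from this stress, had 103, 88.5 and 97.7 CPM against 115, 99.4 and 116 CPM, a log2 fold change of 0.19 ± 0.09 (edgeR unadjusted p = 0.0463). LOWAA 12 lay within the control range of MANF.

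SERP1 had 53.6, 49.9 and 47.2 CPM in the control libraries and 57.8, 54.6 and 61.5 CPM in the LOWAA libraries, with no overlap and a log2 fold change of 0.21 ± 0.09 (edgeR unadjusted p = 0.0376). All 3 translocon genes had a log2 fold change above 0, with a median of 0.16, and SEC61B, a small subunit of the channel, also had no overlap (85.3, 73.7 and 84.7 CPM against 92.0, 91.8 and 87.6 CPM). Of the 6 HSP70 and HSP90 chaperones and partners 5 were above 0, with a median of 0.11 and a highest value of 0.24 for SDF2L1. The disulfide enzymes had a median of 0.08 with 5 of 6 above 0, and the degradation genes 0.03 with 5 of 7. CALR and CANX, both among the most abundant of the 31, had log2 fold changes of 0.01 ± 0.09 and 0.03 ± 0.08. ERO1A, the oxidase that recharges disulfide isomerases, had 51.5, 51.5 and 55.2 CPM against 52.0, 51.0 and 52.2 CPM.

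Libraries without overlap between LOWAA and control were found for 4 of 31 genes in the higher direction (EIF2AK3, XBP1, SEC61B and SERP1), beside 4.69% of all tested genes, and for ATF6 in the lower direction, beside 5.02%. The higher count was 17 without LOWAA 12 and 11 without control 13. For these counts the share of all tested genes is not given here, and groups with fewer libraries separate more easily. Leaving out control 9 lowered the median of the 31 genes to 0.04 with 19 above 0, leaving out LOWAA 8 gave 0.06 and leaving out LOWAA 15 gave 0.07, and leaving out LOWAA 12 raised it to 0.13. Stromal marker sums overlapped between these groups, and their part in the result was not tested.

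**Figure D2:**
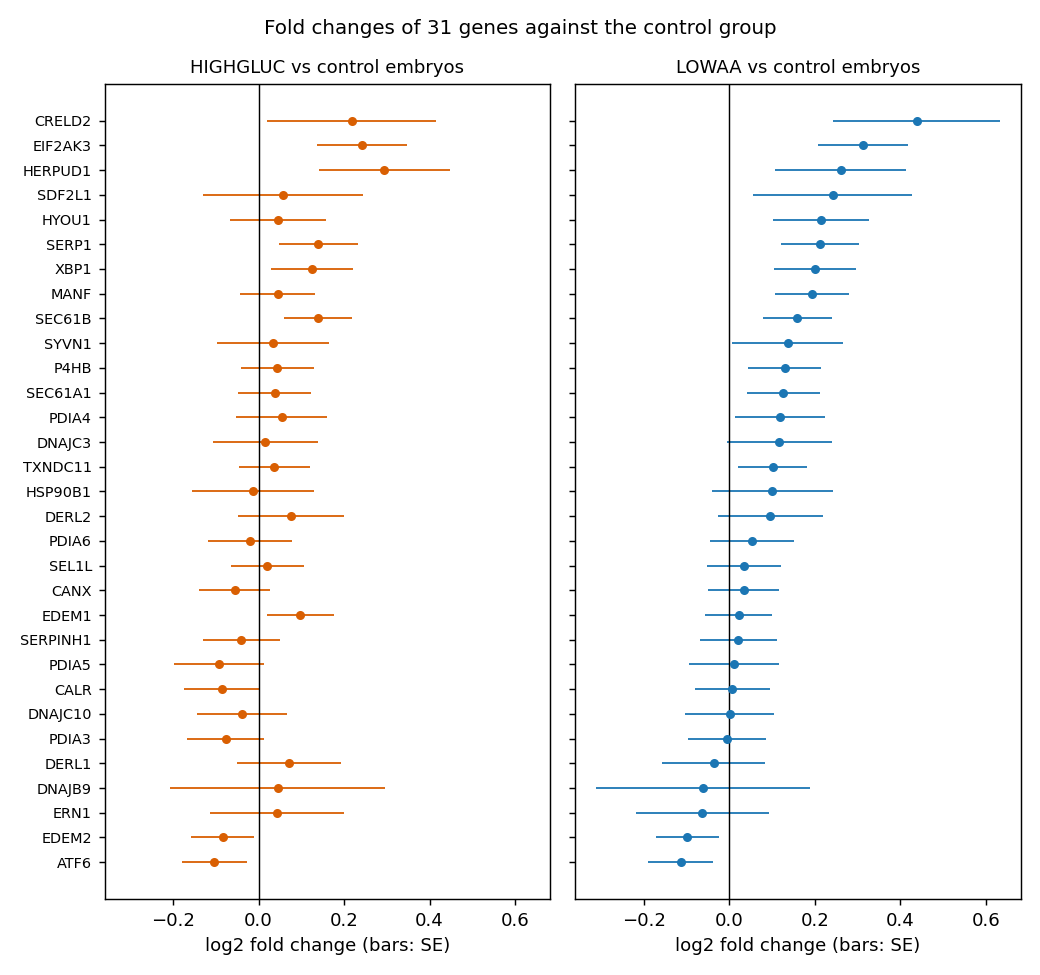
Log2 fold change of the 31 genes against the control group for HIGHGLUC and LOWAA (points, bars are SE from the edgeR fit of 9 libraries), ordered by the LOWAA value. In the LOWAA panel 25 of 31 points lie above 0, from -0.11 for ATF6 to 0.44 for CRELD2, and no gene passed the adjusted test in either panel.

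Within the library-number sets the LOWAA library was above the control library for 25, 23 and 25 of the 31 genes in sets 1, 2 and 3, with median differences of 0.10, 0.06 and 0.10 on the log2 scale, beside 0.00, 0.01 and 0.00 over all tested genes. In all 3 sets the LOWAA library was higher for 18 of 31 genes (58.1%), beside 16.2% of all tested genes, and lower for ATF6 and EDEM2 only, beside 15.8%. All 31 genes share the same libraries, so the 18 are not separate observations. The 18 included EIF2AK3 and XBP1, the chaperones HSP90B1, HYOU1, DNAJC3, SDF2L1 and CANX, the disulfide enzymes P4HB, PDIA4, PDIA6 and TXNDC11, both CRELD2 and MANF, all 3 translocon genes, and HERPUD1 and DERL2 of the degradation group. CRELD2 differed by 0.99, 0.13 and 0.34 in the 3 sets and HYOU1 by 0.33, 0.15 and 0.17. DNAJB9, a co-chaperone with a strong response to stress in other cells, did not keep a direction, with -0.34, 0.38 and -0.30.

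With the set as a further term in the fit, edgeR called 19 genes for LOWAA against control (0.16% of those tested), none of them among the 31, whose smallest adjusted p was 0.254 for EIF2AK3. In that edgeR fit 7 of 31 genes were higher at unadjusted p under 0.05, beside 3.71% of all tested genes. These were EIF2AK3 (edgeR unadjusted p = 0.00312), HERPUD1 (0.00728), HYOU1 (0.00827), CRELD2 (0.00933), XBP1 (0.0120), MANF (0.0174) and SERP1 (0.0266). None of the 31 was lower at that level, beside 4.56% of all tested genes.

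**Figure D3:**
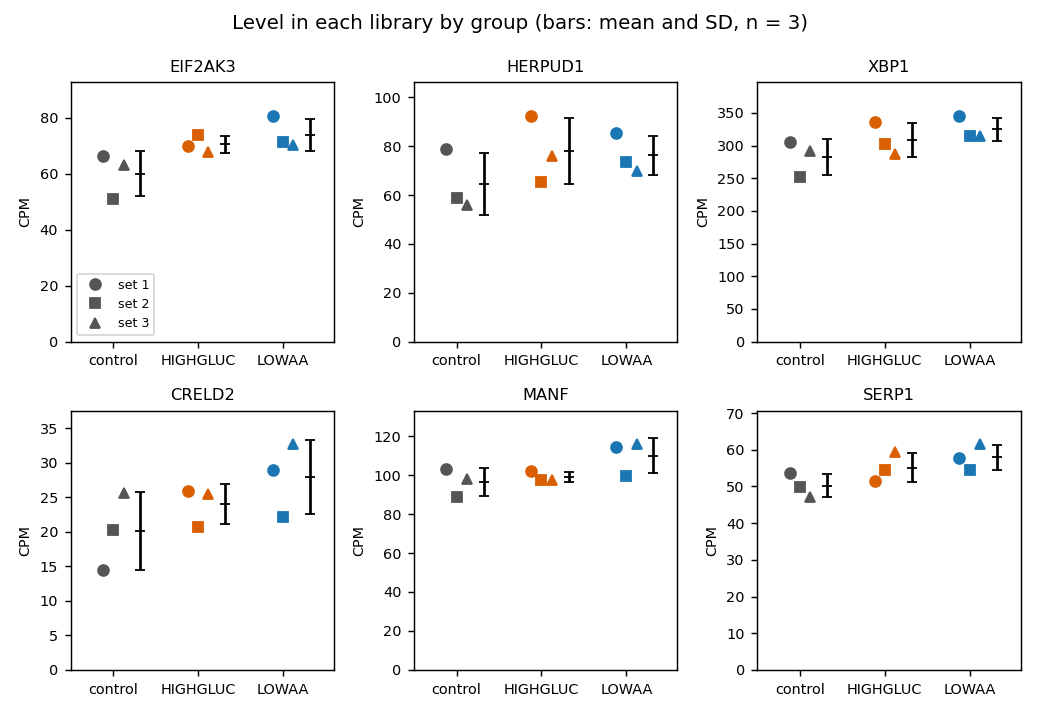
CPM in each library by group for EIF2AK3, HERPUD1, XBP1, CRELD2, MANF and SERP1 (marker shape gives the library-number set, bars give mean and SD of 3 libraries). EIF2AK3, XBP1 and SERP1 have all 3 LOWAA libraries above all 3 control libraries, and CRELD2, MANF and HERPUD1 overlap.

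HIGHGLUC against control asked the same for embryos from high glucose. The 31 genes lay close to the control level: 21 had a log2 fold change above 0, beside 50% of all tested genes, and the median was 0.04, a 1.03-fold difference. None passed the test (0 of 11839 genes, or 0%, in edgeR; 353 had an unadjusted p under 0.05; DESeq2 called 0), and at unadjusted p under 0.05 there was 1 of 31, EIF2AK3, beside 2.98% of all tested genes (1.38% higher and 1.6% lower). Over all 3 groups at once EIF2AK3 was again the 1 gene of the 31 at that level, beside 2.96% of all tested genes. The median was -0.01 without control 9, with 14 genes above 0, and 0.09 without HIGHGLUC 10. This comparison uses the same 3 control libraries as the one before, so their values recur here.

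EIF2AK3 had 69.9, 73.7 and 67.7 CPM in the HIGHGLUC libraries, all above the control libraries, and a log2 fold change of 0.24 ± 0.10 (edgeR unadjusted p = 0.0395), which was 0.13 without control 9. HERPUD1, a membrane protein of the degradation complex, had 79.0, 58.9 and 55.9 CPM in the control libraries, 92.3, 65.5 and 76.2 CPM in HIGHGLUC and 85.4, 73.5 and 69.7 CPM in LOWAA. The groups overlapped, yet the HIGHGLUC library was above the control library in each set. Its log2 fold change was 0.29 ± 0.15 (edgeR unadjusted p = 0.0821), and 0.28 ± 0.09 with the set as a term (edgeR unadjusted p = 0.00372, adjusted p = 0.408). Without the set term it was 0.16 when HIGHGLUC 6 was left out and 0.44 when control 5 was left out.

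SEC61B had 86.1, 88.9 and 92.7 CPM with HIGHGLUC embryos, without overlap with the control libraries (log2 fold change 0.14 ± 0.08, edgeR unadjusted p = 0.106), and SERP1 had 51.5, 54.5 and 59.4 CPM with overlap (0.14 ± 0.09, edgeR unadjusted p = 0.152). ATF6 had 68.2, 68.3 and 64.3 CPM, below all control libraries (-0.10 ± 0.08, edgeR unadjusted p = 0.199). EIF2AK3 and SEC61B were thus the 2 genes of 31 with all HIGHGLUC libraries above all control libraries, beside 3.78% of all tested genes, and ATF6 the 1 gene below, beside 3.57%. With a library left out these counts reached 5 above (without HIGHGLUC 10) and 4 below (without control 9 or HIGHGLUC 14). The shares of all tested genes with a library left out are not given here. XBP1 had 337, 302 and 287 CPM with overlap (0.12 ± 0.10, edgeR unadjusted p = 0.220), and ERN1 had 12.3, 11.7 and 14.6 CPM (edgeR unadjusted p = 0.968). Without control 9 the log2 fold change was 0.07 for SEC61B and 0.05 for XBP1, without HIGHGLUC 6 it was 0.06 for XBP1, and without HIGHGLUC 14 it was 0.08 for SERP1.

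By role, the 3 translocon genes had a median log2 fold change of 0.14, the degradation genes 0.07 with 6 of 7 above 0, the HSP70 and HSP90 group 0.03, the disulfide enzymes 0.01 and the 2 lectin chaperones -0.07. In all 3 sets the HIGHGLUC library was higher for 6 of 31 genes (EIF2AK3, PDIA4, SEC61B, HERPUD1, DERL2 and EDEM1), beside 13.4% of all tested genes, and lower for ATF6, CALR and EDEM2, beside 13.2%. The median differences within sets were 0.02, 0.03 and 0.00, beside 0.00 in each set over all tested genes. With the set as a term, edgeR called 3 genes (0.0253%), none of them among the 31, and at unadjusted p under 0.05 EIF2AK3 and HERPUD1 were higher, beside 3.3% of all tested genes, and 0 of 31 lower, beside 3.35%.

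HIGHGLUC against LOWAA compared the conditioned groups with each other, in the same fit of 9 libraries, so the control libraries entered the estimate of the spread and not the fold changes. Of the 31 genes 7 were higher and 24 lower in HIGHGLUC, beside 49.9% of all tested genes higher, with a median log2 fold change of -0.07. None passed the test (0 of 11839 genes, or 0%, in edgeR; 376 had an unadjusted p under 0.05; DESeq2 called 3 genes, none of them among the 31), and 0 of 31 had an unadjusted p under 0.05, beside 3.18% of all tested genes (1.84% higher and 1.33% lower). No gene of the 31 had groups without overlap, beside 4.43% of all tested genes above and 3.87% below. Without LOWAA 12 there were 8 below, for which the share of all tested genes is not given here. The median was -0.03 without HIGHGLUC 10, -0.03 without LOWAA 8, -0.04 without LOWAA 15 and -0.10 without LOWAA 12.

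MANF had 102, 97.7 and 97.6 CPM with HIGHGLUC embryos, beside the 115, 99.4 and 116 CPM with LOWAA embryos, a log2 fold change of -0.15 ± 0.09 (edgeR unadjusted p = 0.112). HYOU1 had 120, 108 and 132 CPM against 135, 121 and 148 CPM (-0.17 ± 0.11, edgeR unadjusted p = 0.157), beside 107, 108 and 132 CPM with control embryos. CRELD2 had 25.9, 20.6 and 25.4 CPM with HIGHGLUC embryos (-0.22 ± 0.19, edgeR unadjusted p = 0.278). CANX had 1061, 1146 and 1124 CPM against 1134, 1151 and 1260.0 CPM (-0.09 ± 0.08, edgeR unadjusted p = 0.299), and CALR had 1318, 1210.2 and 1349 CPM against 1421, 1231 and 1483 CPM (-0.09 ± 0.09, edgeR unadjusted p = 0.309).

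For these 5 genes the LOWAA library was above the HIGHGLUC library in each set, although the groups overlapped. With a library left out the log2 fold change ranged from -0.21 to -0.11 for MANF, from -0.24 to -0.10 for HYOU1 (lowest in size without LOWAA 15 or HIGHGLUC 10), from -0.36 (without LOWAA 12) to -0.10 (without LOWAA 15) for CRELD2, from -0.12 to -0.04 (without LOWAA 15) for CANX, and from -0.17 (without LOWAA 12) to -0.04 (without LOWAA 15) for CALR. XBP1 (-0.08 ± 0.10), EIF2AK3 (-0.07 ± 0.10), ATF6 (0.01 ± 0.08) and ERN1 (0.11 ± 0.16) overlapped between these groups. All 6 disulfide enzymes, all 3 translocon genes and both lectin chaperones were lower in HIGHGLUC, with medians of -0.07, -0.07 and -0.09, and the degradation genes had a median of 0.01. In all 3 sets 11 of 31 genes were lower, beside 14.3% of all tested genes, and DNAJB9 and EDEM1 were higher, beside 14.2%. With the set as a term, edgeR called 17 genes (0.144%), none of them among the 31, and at unadjusted p under 0.05 HYOU1 was lower, beside 3.94% of all tested genes, and 0 of 31 higher, beside 4.14%.

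**Figure D4:**
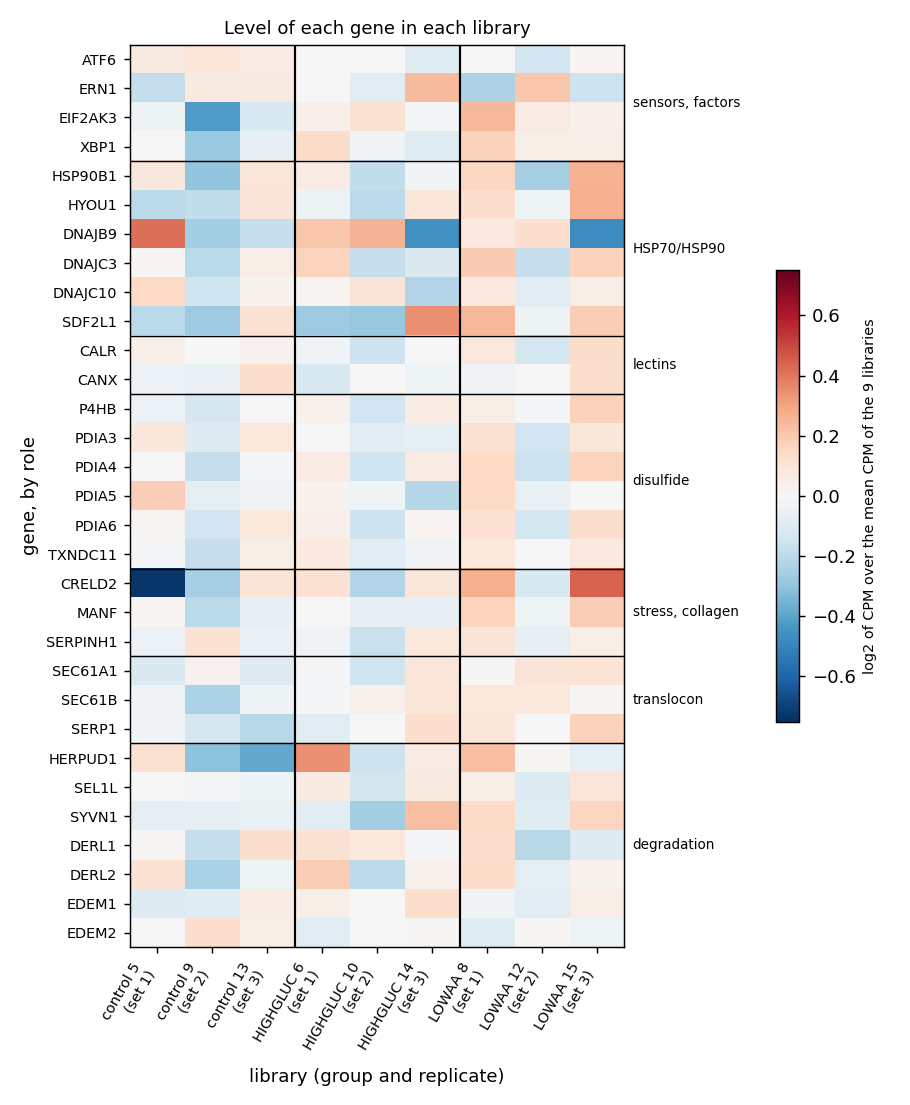
Log2 of the CPM of each gene over its mean in the 9 libraries (colour), by role and by library, with groups parted by vertical lines. The set 2 libraries (control 9, HIGHGLUC 10 and LOWAA 12) are pale blue or blue in many rows of chaperones and disulfide enzymes, and CRELD2 in control 5 is the deepest blue.

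Unlike the embryo groups, the library-number sets gave calls among the 31 genes, as they did among many other tested genes. In the fit with the set as a term, a test over the 3 sets, added after the data were seen, called 1202 of 11839 genes (10.2%; edgeR adjusted p under 0.05) and 5 of the 31 (16.1%): HSP90B1, HERPUD1, DNAJC3, HYOU1 and PDIA4. HSP90B1 had 1710.2, 1687 and 1794 CPM in set 1, 1313, 1421 and 1357 CPM in set 2 and 1720.5, 1593 and 1932 CPM in set 3, each in the order control, HIGHGLUC, LOWAA. All 3 libraries of set 2 lay below all others (edgeR adjusted p = 0.00247), and the set means were 1731, 1363 and 1749 CPM. PDIA4, a disulfide isomerase, had set means of 546, 464 and 548 CPM (edgeR adjusted p = 0.0344), and DNAJC3, a co-chaperone that also inhibits EIF2AK3, had 121, 97.3 and 114 CPM (edgeR adjusted p = 0.0278).

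HERPUD1 had its highest mean in set 1 (85.6 CPM, beside 66.0 and 67.3 CPM; edgeR adjusted p = 0.00884), and HYOU1 in set 3 (137 CPM, beside 121 and 112 CPM; edgeR adjusted p = 0.0287). The library of set 2 was the lowest of its group in all 3 groups for 10 of 31 genes (32.3%), beside 9.04% of all tested genes: HSP90B1, DNAJC3, SDF2L1, CALR, P4HB, PDIA3, PDIA4, PDIA6, TXNDC11 and DERL2. For none of the 31 was it the highest in all 3, beside 8.35% of all tested genes. The library of set 1 was lowest in all 3 groups for EDEM2, beside 11.5%, and highest for 5 genes, beside 11.9%, and that of set 3 was lowest for none, beside 4.8%, and highest for 4 genes (HYOU1, P4HB, SYVN1 and EDEM1), beside 5.15%. The 31 genes took 0.932% to 0.950% of exon reads in set 2, 0.979% to 1.04% in set 1 and 0.990% to 1.08% in set 3.

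Intron reads made up 8.91% to 13.7% in set 2, 7.05% to 8.07% in set 1 and 8.98% to 10.3% in set 3. The stromal markers summed to 12096 to 13099 CPM in set 2, 10555 to 11155 CPM in set 1 and 11416 to 13152 CPM in set 3, and the epithelial markers to 7876 to 8927, 8333 to 8926 and 7839 to 8172 CPM. The part of these values in the differences between sets was not tested. The call held in 8 of 9 fits with 1 library left out for HSP90B1 (lost without LOWAA 12, adjusted p = 0.0559), in 7 for HERPUD1 (lost without control 5, 0.0834, and HIGHGLUC 6, 0.0891) and in 5 for DNAJC3 (lost without control 9, HIGHGLUC 6, LOWAA 8 and LOWAA 12, up to 0.183). It held in 3 for HYOU1 (kept without control 9, HIGHGLUC 6 and HIGHGLUC 10, otherwise up to 0.140) and in 1 for PDIA4 (kept without control 13, otherwise up to 0.263).

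**Figure D5:**
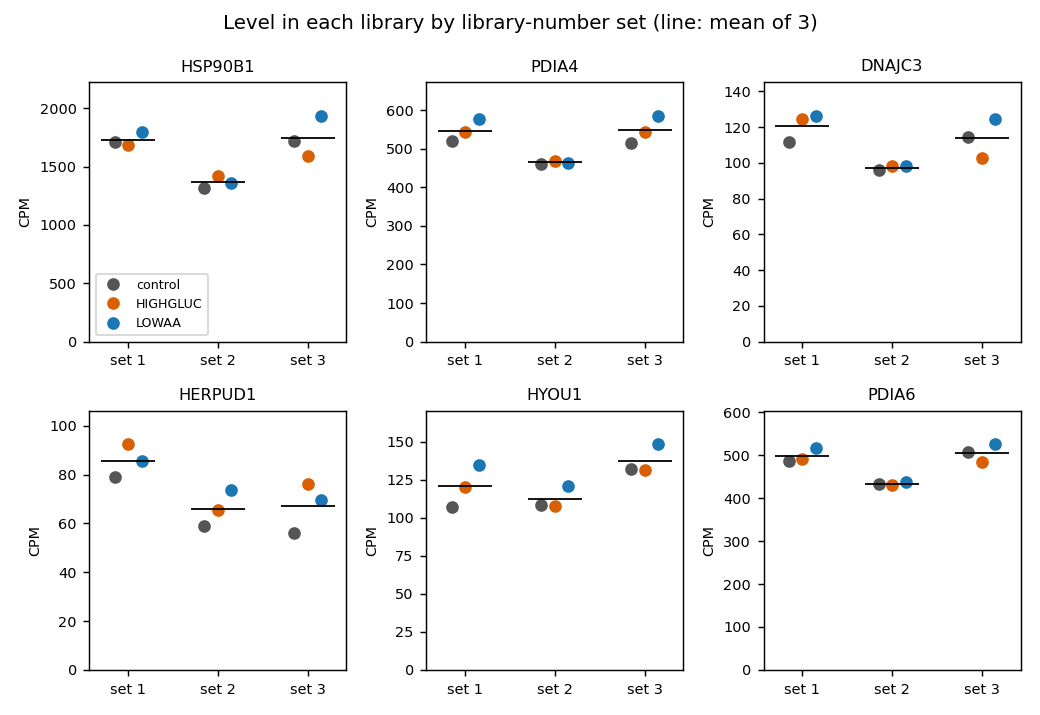
CPM in each library by library-number set for HSP90B1, PDIA4, DNAJC3, HERPUD1, HYOU1 and PDIA6 (colour gives the group, the line is the mean of the 3 libraries of a set). HSP90B1 means are 1731, 1363 and 1749 CPM, and its set 2 libraries lie below all others whatever the group.

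Other genes of the same compartment were read from 7 further lists with 127 names, of which 118 had a row and 117 were tested. The 2 genes described from each list are those with its smallest edgeR p in LOWAA against control, so the list medians are given beside them. No gene of these lists passed the test in any comparison, in either direction. For LOWAA against control 78 of 117 were above 0, beside 50.9% of all tested genes. At edgeR unadjusted p under 0.05 there were 3 of 117 higher (CHAC1, SSR1 and KDELR3) and 0 lower. The shares of all tested genes were 1.55% higher, 2.46% lower and 4% in either direction. For HIGHGLUC against control 55 of 117 were above 0, beside 50% of all tested genes, and again 3 were higher and 0 lower at that level. Here the shares of all tested genes were 1.38% higher, 1.6% lower and 2.98% in either direction. For HIGHGLUC against LOWAA 46 of 117 were above 0, with 2 higher and 1 lower at that level, beside 1.84% and 1.33%.

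The list of the EIF2AK3 to ATF4 branch had 8 of 11 tested genes above 0 in LOWAA against control, with a median of 0.15, beside 4 of 11 and -0.02 in HIGHGLUC against control. CHAC1, a glutathione-degrading enzyme induced by ATF4, had 2.12, 1.48 and 2.03 CPM in the control libraries, 2.38, 1.97 and 4.34 CPM in HIGHGLUC and 4.89, 5.08 and 3.70 CPM in LOWAA. All LOWAA libraries were above all control libraries, and HIGHGLUC 14 reached the LOWAA range. CHAC1 was a gene of few reads: in control 5, where it had 2.12 CPM, even 0 reads would allow up to 1.04 CPM. Its log2 fold change in LOWAA against control was 1.33 ± 0.33 (edgeR unadjusted p = 0.00167, adjusted p = 1.00). ASNS, the asparagine synthetase, had 68.1, 72.9 and 66.9 CPM in the control libraries against 84.7, 75.3 and 74.0 CPM in LOWAA, without overlap (0.17 ± 0.08, edgeR unadjusted p = 0.0619).

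Among genes of protein entry, SSR1, a subunit of the translocon-associated complex, was at 290.1 ± 18.5 CPM in the control group against 327 ± 9.16 CPM in LOWAA (mean and SD, n = 3; log2 fold change 0.17 ± 0.08, edgeR unadjusted p = 0.0454), and TRAM2 had a log2 fold change of 0.18 ± 0.10. That list had 14 of 21 genes above 0 with a median of 0.02. Of export and retrieval 14 of 17 genes were above 0 with a median of 0.06, and KDELR3, a receptor that returns escaped chaperones, had 69.0 ± 8.13 CPM against 80.9 ± 7.51 CPM (0.23 ± 0.10, edgeR unadjusted p = 0.0423), while the coat subunit SEC24D had 0.20 ± 0.11. In the list of ATF6 and CREB3 processing 7 of 10 were above 0 with a median of 0.12, where the transcription factor CREB3L1 had 0.23 ± 0.11 and CREBRF, a negative regulator of CREB3, had -0.33 ± 0.16.

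The list of N-glycosylation had 10 of 15 genes above 0 and a median of 0.06, and its named members were KRTCAP2 (-0.19 ± 0.09) and MAGT1 (0.12 ± 0.09), both tied to the oligosaccharyltransferase. MAGT1 had 0.21 ± 0.09 in HIGHGLUC against control (edgeR unadjusted p = 0.0295, adjusted p = 1.00). The other disulfide enzymes and prolyl isomerases had 12 of 22 above 0 and a median of 0.02, with ERP29 at -0.14 ± 0.09 and the oxidase ERO1B at 0.27 ± 0.19. The other degradation genes had 13 of 21 above 0 and a median of 0.02, with FAM8A1 at -0.22 ± 0.11 and SELK at 0.26 ± 0.15. The levels of these members were 1.88 CPM (CHAC1) to 290.1 CPM (SSR1) with control embryos, and none of them passed the test.

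In the authors' deposited table, which tests their normalised values with Baggerley's test of proportions, CALR was the 1 gene of the 31 with a false discovery rate under 0.05. The authors' deposited table gives it a fold change of -1.09 for HIGHGLUC against control (p = 1.57e-08, false discovery rate 0.000169), and 11 of 24596 genes (0.0447%) passed there. In CPM the control libraries of CALR had 1388, 1347 and 1380.4 and the HIGHGLUC libraries 1318, 1210.2 and 1349, so HIGHGLUC 14 lay just above control 9 (edgeR log2 fold change -0.09 ± 0.09, unadjusted p = 0.344). This overlap depended on the scaling. In RPKM, which carry no TMM factors, all HIGHGLUC libraries of CALR lay below all control libraries (673 ± 31.5 against 716 ± 4.11 RPKM, mean and SD). For LOWAA against control the authors' deposited table called 77 genes (0.313%) and for LOWAA against HIGHGLUC 44 genes (0.179%), none of them among the 31. Its fold changes were above 0 for 21 of 31 genes in HIGHGLUC against control, 23 in LOWAA against control and 25 in LOWAA against HIGHGLUC. The smallest rate among the 31 in LOWAA against control in the authors' deposited table was 0.216, for SERP1 (fold change 1.16, p = 0.00164).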

How the data were processed

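The single deposited table gives read counts per gene (total exon, unique exon, intron and exon-exon reads), per the file headers. Its normalised signal columns were quantile normalised by the authors, its fold change is a signed score of the authors' weighted proportions comparison, and its p-values and false discovery rates come from the authors' Baggerley test, per the file headers. Exon lengths and gene positions are other columns deposited by the authors. Reads were single reads of 50 bases, per the labels' protocols, while the file headers call the libraries paired, and Bowtie2, HTSeq 0.5.4p2 and the build UMD3.1 are named in the submitters' processing notes, with no role given. Of 231 columns 60 were read, while 148 that hold library values stayed unread. A share of 0 reads allows up to 3 reads, and such limits cover counting error only.

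Total exon reads of all 9 libraries were fitted together with edgeR 4.0.16 in R 4.3.3: filterByExpr with minimum count 10, TMM, robust quasi-likelihood test, Benjamini-Hochberg adjustment over 11839 genes and a threshold of 0.05. CPM carry TMM factors, except those of marker sums and RPKM, and SE is the fold change over the square root of F. Alternatives used DESeq2 1.42.0, limma 3.58.1, other scalings, no filter, unique reads, sets as a term, the authors' normalised values (log2 of value + 1) and each library left out. In total reads, libraries of a set correlated at 0.022 to 0.606 after removal of group means (7 of 9 pairs above 0.1). Pairs from different sets ranged from -0.702 to 0.421, with 6 of 18 above 0.1. Treating sets as pairs required all 9 above 0.1, which total reads did not meet, and the main fit has no set term. With unique reads all 9 were (0.198 to 0.452, beside -0.367 to 0.032 for other pairs). With total reads a set term lowered edgeR's estimate of the biological coefficient of variation from 0.171 to 0.107. For both reasons results with sets as a term are given beside.

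Genes and lists were chosen with earlier results of these data known, and support nothing by their choice. Values per library are given for the 5 genes with the smallest p in each comparison and for XBP1, ATF6, ERN1 and EIF2AK3. From each further list the 2 tested genes with the smallest edgeR p in LOWAA against control are named. They were thus picked by their values and do not stand for their lists. Genes outside that rule (CALR in the authors' table, DNAJB9, and the genes called between sets) were chosen after their values were seen. Promoter and protein sequences were not used here.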

Additional observations from a re-analysis of the deposited data

How the results depend on the processing

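Of the alternatives for named genes 430 kept direction and side of the threshold, and 7 reversed the direction. With a library left out, the log2 fold change of ERN1 ranged from -0.05239 to 0.1091 in HIGHGLUC against control and from -0.2046 to 0.02567 in LOWAA against control, and that of ATF6 from -0.03681 to 0.03797 in HIGHGLUC against LOWAA. With the authors' normalised values the last was -0.0006725. The cause was not tested.

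The libraries share no replicate number, so the sets are a reading of the library numbers and not a stated pairing. With the replicate block by set, edgeR called 3, 19 and 17 genes (HIGHGLUC against control, LOWAA against control, HIGHGLUC against LOWAA) and 24 over all groups, and with unique reads and the block 7, 57, 36 and 60, the last chosen after the data were seen. None of those called in the 3 comparisons was among the 31 genes. DESeq2 called 4 genes for LOWAA against control, 3 for HIGHGLUC against LOWAA and 4 over all groups. Leaving out single libraries gave 0 to 1 genes for LOWAA against control.

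For the counts below, the shares of all tested genes are not given here, and groups with fewer libraries separate more easily. Counts of the 31 genes without overlap moved as follows. HIGHGLUC above control was 1 with library totals and 2 to 5 with a library left out. HIGHGLUC below control was 2 with DESeq2's size factors, library totals, no filter, unique reads and the authors' normalised values, and 2 to 4 with a library left out. LOWAA above control was 4 to 17 and LOWAA below control 1 to 2 with a library left out. HIGHGLUC above LOWAA was 0 to 1 with a library left out, and below it 0 to 8, and 1 with library totals and with the authors' normalised values. The cause was not tested. The test over sets called 790 (without control 5), 794 (without HIGHGLUC 6) to 1284 genes and 1 to 5 of the 31 with a library left out, and 7 of the 31 with unique reads.

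The median log2 fold change of the 31 genes ranged from -0.01 to 0.09 (HIGHGLUC against control), from 0.04 to 0.13 (LOWAA against control) and from -0.10 to -0.03 (HIGHGLUC against LOWAA) with a library left out. The SE of the log2 fold change in LOWAA against control was 0.07 (EDEM2) to 0.25 (DNAJB9), which limits what could be detected with 3 libraries a group.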
